A study of Arabidopsis thaliana with 8 samples.

Results

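The genes described here encode the later-acting repressors of the Arabidopsis thaliana circadian clock and the clock proteins that work with them. They are the 5 PSEUDO-RESPONSE REGULATOR (PRR) genes TOC1 (AT5G61380), PRR3 (AT5G60100), PRR5 (AT5G24470), PRR7 (AT5G02810) and PRR9 (AT2G46790), GIGANTEA or GI (AT1G22770), and 4 genes of the evening complex, ELF3 (AT2G25930), ELF4 (AT2G40080), LUX (AT3G46640) and BOA (AT5G59570). They were listed by name as known clock genes, with earlier results of these data known, and all 10 had a row among the 27826 loci of the expression table. Transcript levels had been measured on 8 Affymetrix arrays of rosette leaves from soil-grown, short-day plants aged 7 weeks, frozen 2 h after the lights came on. Of these arrays 4 were of the Col-0 wild type, and a mutant that its titles describe as depleted in NAA50, an N-terminal acetyltransferase, gave the other 4. The ecotype field of the mutant reads animaa50, and the sources used here do not give the agent or promoter behind the depletion, the number of independent lines or the number of plants per array.

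The plant clock is a loop of repressors that are made one after another through the day. CCA1 and LHY, MYB-type transcription factors, peak around dawn; PRR9, PRR7, PRR5 and TOC1 follow in that order from morning to evening and repress CCA1 and LHY. GI is a large plant-specific protein of the afternoon and evening that stabilises the F-box protein ZTL, which in turn marks TOC1 and PRR5 for degradation. The evening complex of ELF3, ELF4 and LUX acts from dusk into the night, repressing PRR9, PRR7, GI and the growth regulator PIF4. All 8 arrays were taken at a single time in the morning, so each value is a level at that time; the phase, period and amplitude of a rhythm were not measured.

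The values are RMA values taken as log2, with 1 value per locus and array and an array median of 2.73. NAA50 (AT5G11340) checks the labels, and it went against them if transcript is meant: its level was 4.23 to 4.75 on the wild type arrays and 10.24 to 10.52 on the arrays labelled NAA50-depleted. Every direction below is therefore that of the arrays labelled NAA50-depleted against those labelled wild type. Leaf mesophyll markers were high on every array, at 10.63 to 13.33, and the root, flower and seed markers lay at 1.02 to 2.70. Of 4 epidermis markers 1 was lower on the labelled-depleted arrays (CER1, by -1.89 ± 0.32, SE), and of 3 guard cell markers 1 (KAT1, by -0.92 ± 0.21), while none of the 4 phloem markers passed in limma, nor at an unadjusted p under 0.05. The summed linear values of the epidermis list were 928 to 1081 on the wild type arrays and 592 to 897 on the others. That sum includes CER1, while ATML1 (-0.22), KCS10 (-0.04) and PDF1 (0.04, dim at 1.33 to 2.74) did not pass. The sums of the guard cell list were 75.8 to 126 and 56.4 to 75.2, and MYB60 (-0.45) and FAMA (-0.35) did not pass. Whether these cell types have a part in the results below was not tested. In whole leaves, fewer cells of a type and less RNA per cell cannot be told apart. Nothing in the labels says that the 4 arrays of a group came from separate plants, so the p-values measure the spread between these arrays.

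The clock genes did not move in 1 direction. TOC1, PRR5, ELF3 and, at a low level, LUX rose on the arrays labelled NAA50-depleted, PRR9 and GI fell, and PRR3, PRR7, ELF4 and BOA did not pass the test. With limma over all loci and a Benjamini-Hochberg adjusted p under 0.05, 4 of 10 members were higher, where 6.95% of all loci were, and 2 of 10 were lower, where 7.58% of all loci were. The median member differed by 0.09 and the median locus by -0.03 on the log2 scale. The groups did not overlap at 4 members that were higher and 1 that was lower, against 8.48% and 10.4% of all loci.

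**Figure D1:**
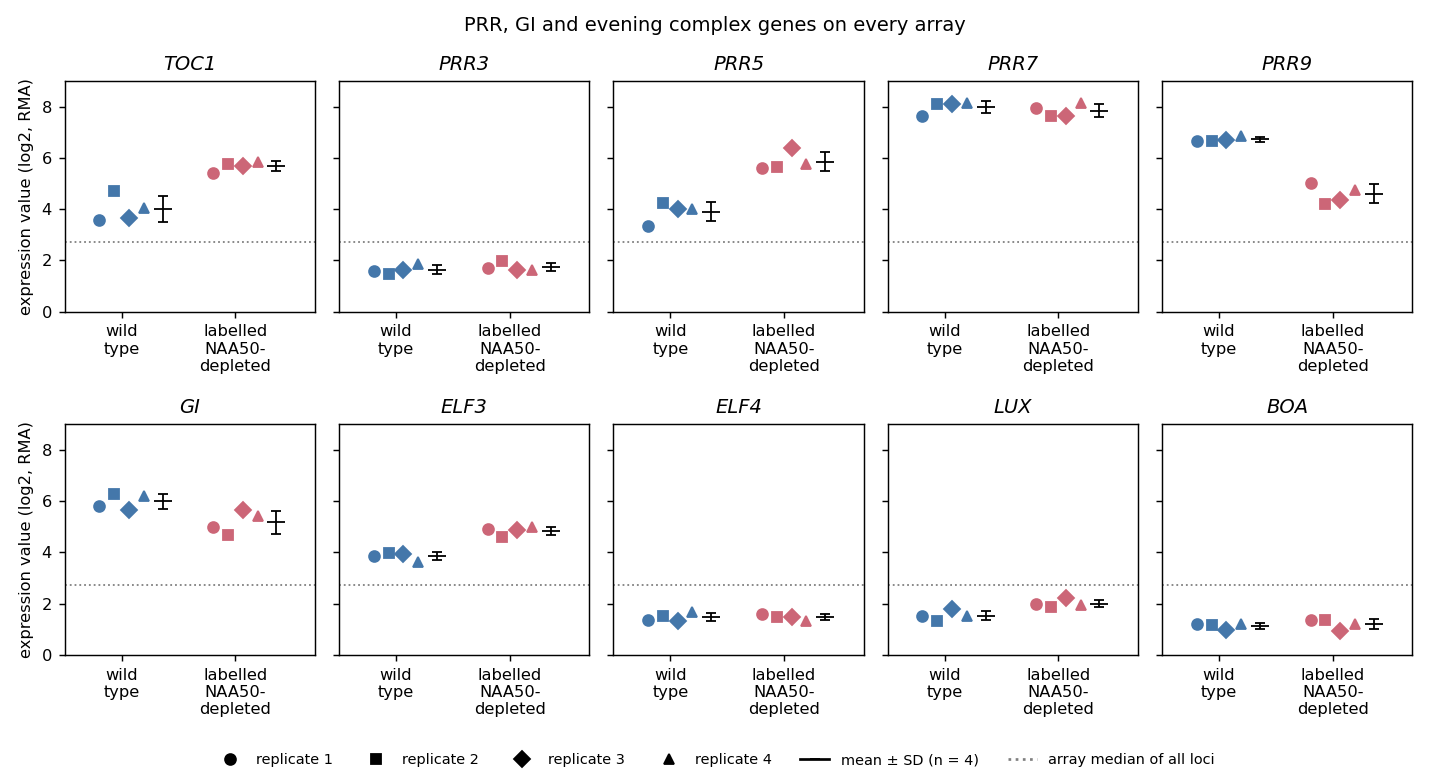
Log2 RMA values of the 10 genes on each of the 8 arrays, by group, with marker shape for the replicate number, the mean ± SD (n = 4) beside the points and the array median of 2.73 as a dotted line. TOC1, PRR5 and ELF3 lie higher and PRR9 lower on every labelled-depleted array, PRR7 is high in both groups, and PRR3, ELF4, LUX and BOA lie under the array median throughout.

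PRR9, the first of the PRR repressors to appear after dawn and a gene that light induces, showed the largest change of the 10. Its wild type values were 6.67, 6.67, 6.71 and 6.87, and its labelled-depleted values 5.04, 4.22, 4.37 and 4.75. The wild type arrays were nearly alike, with an SD of 0.10, while the labelled-depleted arrays spread over a wider range, with an SD of 0.37, and the highest of them still lay 1.63 below the lowest wild type array. In log2 units the difference was -2.13 ± 0.17 (SE over 4 arrays a group; 95% interval -2.51 to -1.76; adjusted p = 1.65e-05 in limma), a level 4.39-fold lower. Of all 27826 loci, 16 had a more negative difference.

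PRR5, a repressor that follows in the afternoon, went the opposite way. Its values were 3.36, 4.25, 4.03 and 4.01 on the wild type arrays and 5.62, 5.65, 6.40 and 5.75 on the labelled-depleted arrays. Labelled-depleted replicate 3 stood above the other labelled-depleted arrays and wild type replicate 1 below the other wild type arrays, and the groups did not overlap. PRR5 rose by 1.95 ± 0.22 (95% interval 1.47 to 2.43; adjusted p = 0.000142 in limma), or 3.86-fold. Left out in turn, those 2 arrays gave the smallest differences, 1.77 and 1.76, and the call was kept.

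TOC1, the PRR of the evening and a direct repressor of CCA1, rose by nearly as much. The wild type arrays gave 3.60, 4.72, 3.67 and 4.05, and the labelled-depleted arrays 5.41, 5.78, 5.68 and 5.83. Wild type replicate 2 was the highest of its group for TOC1 and for PRR5, and it lay 0.69 below the lowest labelled-depleted array for TOC1. The difference was 1.67 ± 0.22 (95% interval 1.18 to 2.16; adjusted p = 0.000482), or 3.18-fold, and it ranged from 1.53 to 1.90 when single arrays were left out. The wild type levels of TOC1 and PRR5 were thus above the array median but moderate, between percentiles 57.1 and 72.7 of all loci on those arrays. On the labelled-depleted arrays both genes lay between percentiles 80.5 and 89.8.

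PRR7, which shares with PRR9 the repression of CCA1 and LHY in the morning was bright in both groups, between percentiles 96.3 and 97.6 of all loci, and did not pass the test. Its values were 7.65, 8.10, 8.09 and 8.13 on the wild type arrays and 7.96, 7.64, 7.65 and 8.14 on the labelled-depleted arrays. The ranges of the groups were almost the same, and wild type replicate 1 stood apart from the other wild type arrays. The difference was -0.14 ± 0.16 (95% interval -0.49 to 0.20; adjusted p = 0.647). PRR3, a PRR that has been described as expressed in the vasculature and as protecting TOC1 from ZTL, gave 1.47 to 1.87 in the wild type group and 1.62 to 1.99 in the other. Its difference was 0.10 ± 0.13 (95% interval -0.19 to 0.39; adjusted p = 0.720), and at values under the array median of 2.73 a change in a low transcript may not be visible.

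**Figure D2:**
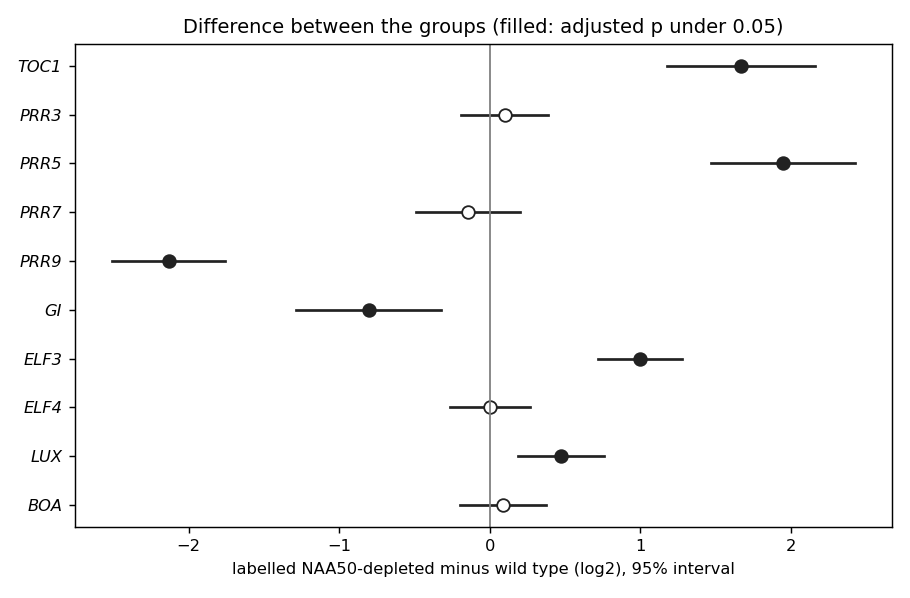
Difference between the groups for each of the 10 genes, labelled NAA50-depleted minus wild type, in log2 units, with the 95% interval from limma; filled points have an adjusted p under 0.05. PRR9 at -2.13 and PRR5 at 1.95 lie farthest from 0, on opposite sides, and the intervals of PRR3, PRR7, ELF4 and BOA include 0.

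Of the 5 PRR genes 2 thus rose, 1 fell and 2 did not pass. To compare related PRR genes directly, their difference within each array was taken and compared between the groups with an exact two-sided permutation test over arrays, for 3 pairs of related genes in all. PRR9 exceeded PRR5 by 3.32, 2.42, 2.68 and 2.86 on the wild type arrays, whereas on the labelled-depleted arrays the same quantity lay between -2.03 and -0.58. That quantity was positive on every wild type array and negative on every labelled-depleted array. The change of sign between the groups follows from the opposite changes of the 2 genes. It does not show which transcript is more abundant, since probe sets differ in brightness. The shift was -4.08 ± 0.36 (SE, n = 4 arrays per group), with an exact p of 0.0286, the smallest that 4 arrays against 4 allow, and 0.0857 adjusted over the 3 pairs. With PRR9 lower and PRR5 higher and no overlap at either gene, the test could give no other p. It therefore adds nothing to the calls of the 2 genes. For PRR7 minus PRR3 the shift was -0.24 ± 0.22 (exact permutation p = 0.371, adjusted p = 0.371), and with PRR3 under the array median it cannot compare the responses of that pair.

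GI, which links the clock to flowering and to ZTL, fell, with a smaller and less secure difference than PRR9. Its wild type values were 5.82, 6.26, 5.66 and 6.21, and its labelled-depleted values 4.98, 4.67, 5.67 and 5.40. The groups overlapped, since labelled-depleted replicate 3 lay just above wild type replicate 3. The difference was -0.81 ± 0.22 (95% interval -1.29 to -0.32; adjusted p = 0.0295), or 1.75-fold lower. The call was lost after cyclic loess normalization (-0.72, adjusted p = 0.0527), without wild type replicate 2 (-0.72) or 4 (-0.73), and without labelled-depleted replicate 1 (-0.74) or 2 (-0.63), with adjusted p-values of 0.0771 to 0.0864 when those arrays were left out. It was also lost with the replicate number as a block (adjusted p = 0.0556 in limma).

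Among the genes of the evening complex, ELF3, the scaffold that joins ELF4 to LUX and also takes part in temperature sensing, rose. Its levels were 3.85, 3.97, 3.93 and 3.63 on the wild type arrays and 4.91, 4.61, 4.88 and 4.98 on the labelled-depleted arrays. Both groups were tight, with SDs of 0.15 and 0.16, and they were separated by 0.64. The difference was 1.00 ± 0.13 (95% interval 0.72 to 1.28; adjusted p = 0.000336), or 2.00-fold, and it stayed between 0.93 and 1.08 when single arrays were left out.

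LUX, the MYB-like factor that carries the complex to DNA, was called higher at a level below the array median. It gave 1.51, 1.33, 1.77 and 1.51 on the wild type arrays and 2.00, 1.85, 2.21 and 1.94 on the labelled-depleted arrays, so that the groups were separated by 0.08. LUX rose by 0.47 ± 0.13 (95% interval 0.18 to 0.76; adjusted p = 0.0325), or 1.39-fold. Its wild type values lay between percentiles 8.74 and 29.8 of all loci, where signal above background was not shown, so the size is uncertain. The call was lost without wild type replicate 1, 2 or 4 (0.46, 0.40 and 0.46) and without labelled-depleted replicate 1, 3 or 4 (0.47, 0.40 and 0.49).

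BOA, a close relative of LUX, and ELF4, the small protein that with ELF3 and LUX completes the complex, gave no difference past the threshold. BOA lay at 0.96 to 1.22 on the wild type arrays and at 0.94 to 1.37 on the labelled-depleted arrays, at or below percentile 10.3 of all loci on every array. Its difference was 0.09 ± 0.13 (95% interval -0.20 to 0.37; adjusted p = 0.754). ELF4 lay at 1.34 to 1.68 and at 1.33 to 1.61, with a difference of 0.002 ± 0.12 (95% interval -0.26 to 0.27; adjusted p = 0.996). These levels are near the bottom of the arrays, and a change in either transcript may not be visible there. LUX minus BOA shifted by 0.38 ± 0.22 between the groups (exact permutation p = 0.114, adjusted over the 3 pairs p = 0.171), but at the level of BOA this quantity cannot compare the responses of the 2 genes.

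**Figure D3:**
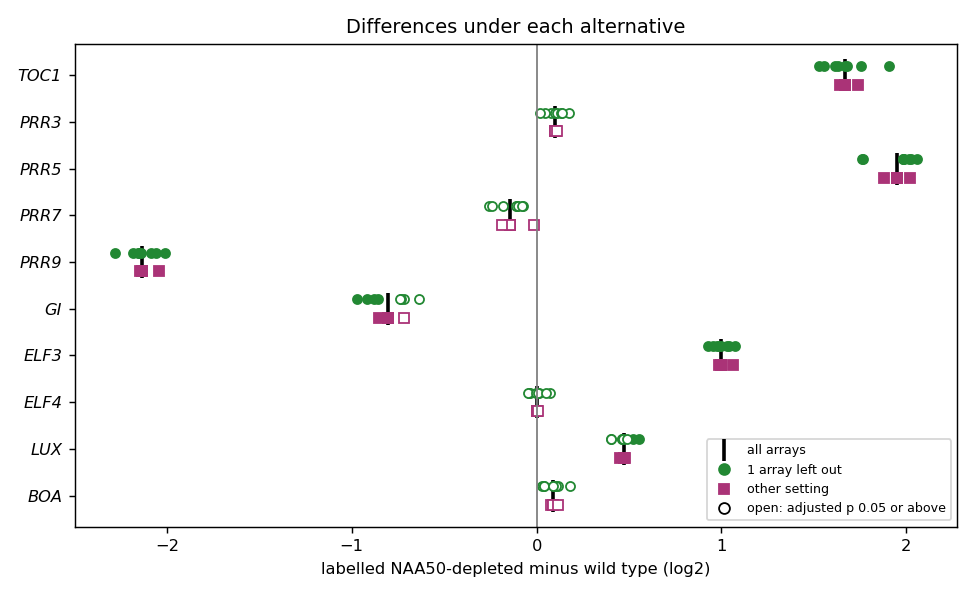
Difference of each gene in log2 units with all arrays (black bar), with 1 array left out (green circles) and under the other settings (purple squares); open symbols have an adjusted p of 0.05 or above. TOC1, PRR5, PRR9 and ELF3 stay past the threshold under all 14 alternatives, while GI and LUX pass under 8 of 14.

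The spread within the groups also differed among the 10 genes. The pooled within-group SD was 0.39 for TOC1, 0.38 for GI and 0.37 for PRR5, at percentiles 91.0 to 92.1 of all loci, where the median locus had 0.21. For ELF3 it was 0.16, at percentile 25.3. Labelled-depleted replicate 3 was the highest of its group for PRR5, GI and LUX and the lowest for BOA. Labelled-depleted replicate 2 was the lowest for PRR9, GI, ELF3, LUX and, narrowly, PRR7, and the highest for PRR3 and BOA.

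The nearest measured loci on either side of the members on the chromosome, 20 in all, were examined as a description of position. Of these 3 were higher and none was lower in limma, against 6.95% and 7.58% of all loci, and 4 and 4 at an unadjusted p under 0.05. No share of all loci was taken at that unadjusted p, so the unadjusted counts here and for the lists below have no background. PRR9 was flanked by 2 of them: AT2G46780 rose by 1.40 ± 0.25 and ZAT, a zinc transporter gene also called MTP1, by 0.44 ± 0.12, opposite in direction to PRR9 itself. The third, AT5G24460 beside PRR5, rose by 0.66 ± 0.11 (adjusted p at most 0.0292 for the 3 loci). Neither neighbour of TOC1, GI, ELF3 or LUX passed the test.

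Of 61 further clock genes in 5 lists 3 were higher and 8 lower in limma, beside 6.95% and 7.58% of all loci, with a median difference of 0.01; the number higher was no more than the share over all loci gives. The lists held the morning factors, the F-box proteins and co-repressors that act with the PRR proteins, relatives and light-signalling partners of the evening complex, output and target genes, and accessory clock genes. After cyclic loess normalization 5 were higher, and 1 was higher without wild type replicate 1 or 3.

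CCA1 and LHY, the genes that the PRR proteins repress, showed no difference past the threshold; they were named here after their values were seen. CCA1 reached at most 6.69 on the wild type arrays and lay at 6.11 to 6.93 on the others, a difference of 0.11 ± 0.20 (95% interval -0.32 to 0.55; adjusted p = 0.794). LHY differed by -0.33 ± 0.22 (95% interval -0.82 to 0.15; adjusted p = 0.402). Against the same shares of all loci, of the 10 morning factors 1 rose, RVE1, a CCA1-like factor that connects the clock to auxin synthesis, and 2 fell, LNK1 and LNK3, of a family of co-activators that bind RVE8. RVE1 gave 3.98, 4.24, 3.99 and 3.71 against 5.04, 5.82, 4.88 and 4.50, a difference of 1.08 ± 0.24 (adjusted p = 0.0105). LNK1 gave 7.29, 7.21, 7.42 and 7.41 against 6.13, 6.01, 5.92 and 5.88, a difference of -1.35 ± 0.11 (adjusted p = 2.02e-05). LNK3 changed by -0.83 ± 0.14 (adjusted p = 0.00200), and the groups did not overlap for any of these 3 genes. LNK2 (0.01, adjusted p = 0.983 in limma) and LNK4 (0.21, adjusted p = 0.261) of the LNK family did not pass, and LNK4 lay higher without overlap. AT5G52660 of this list differed by -0.41 ± 0.12 (adjusted p = 0.0502), also without overlap, and the number lower was 3 with the filter on dim loci and with array weights. Without overlap, 2 of the 10 morning factors were higher and 3 lower, beside 8.48% and 10.4% of all loci. LNK1 and RVE8 are known as activators of PRR5 and TOC1; RVE8 itself did not pass the test.

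None of the 10 F-box proteins and co-repressors passed the test in limma, where 6.95% of all loci were higher and 7.58% lower. At an unadjusted p under 0.05, 2 were higher and 1 lower. That list held ZTL, FKF1 and LKP2, the light-sensing F-box proteins, and TOPLESS and its relatives, through which PRR proteins repress. Its differences ran from -0.29 to 0.40, the highest that of CHE, a TCP factor that binds the CCA1 promoter (0.40 ± 0.17, adjusted p = 0.168). Without labelled-depleted replicate 2 CHE passed, at 0.55. FKF1 lay at 1.38 to 1.77, below the array median, where a change may not be visible.

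Of the 12 relatives and partners of the evening complex 3 fell and none rose in limma, where 7.58% of all loci were lower and 6.95% higher. At an unadjusted p under 0.05, 1 was higher. The list was made to include light-signalling partners, and the 3 that fell are among these, so that shared trait comes from the list. PHYB, the red-light receptor phytochrome B, which binds ELF3, gave 5.95, 5.90, 5.85 and 5.84 on the wild type arrays and 4.46, 4.67, 4.25 and 4.37 on the labelled-depleted arrays. Its difference was -1.45 ± 0.12 (adjusted p = 1.82e-05), or 2.73-fold lower, and the groups lay far apart compared with their spread. TZP, a zinc knuckle protein that associates with phytochrome B, differed by -1.30 ± 0.13 (adjusted p = 5.97e-05), with 5.09 to 5.34 on the wild type arrays and 3.61 to 4.07 on the others. COP1, the E3 ubiquitin ligase that acts on ELF3 and GI, changed by -0.84 ± 0.11 (adjusted p = 0.000392) and completes the count; it was named after its value was seen. The 4 ELF4-like genes did not pass the test. The largest difference among them was that of EFL3, 0.66 ± 0.21 (adjusted p = 0.0560) at values of 1.76 to 3.21, and the list had 1 gene higher with array weights, the filter on dim loci or the trended variance model, and without labelled-depleted replicate 4.

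**Figure D4:**
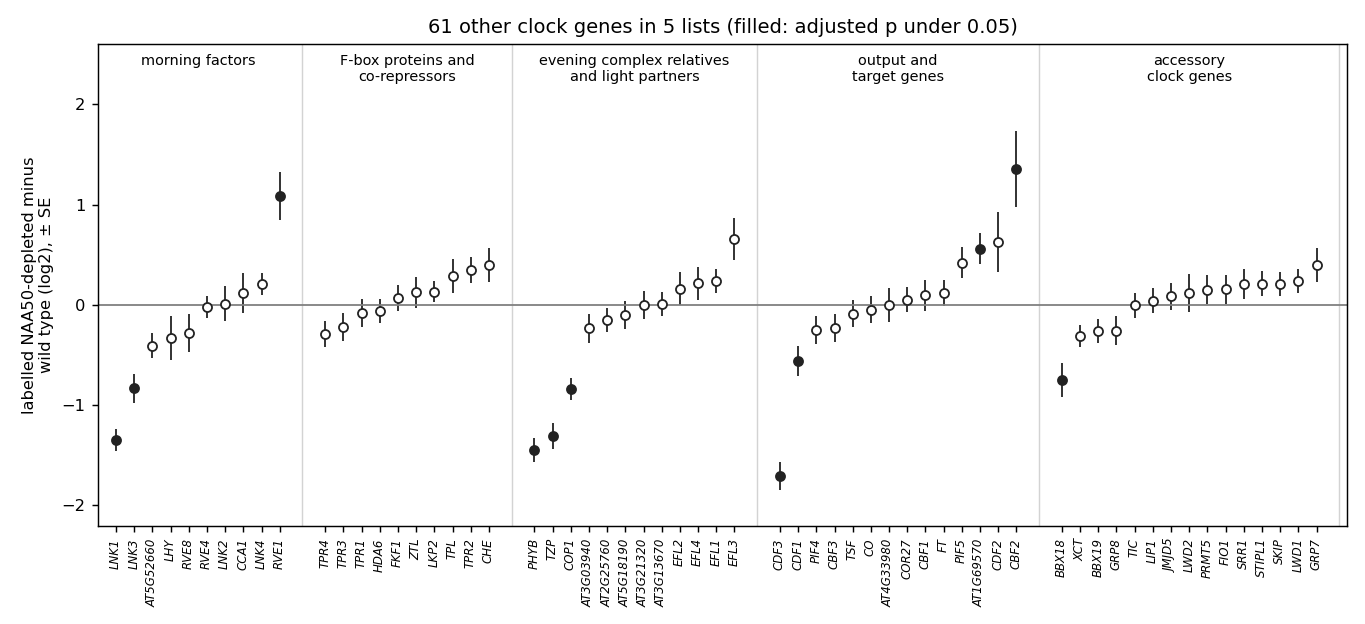
Difference between the groups, labelled NAA50-depleted minus wild type, in log2 units ± SE (n = 4 arrays per group) for 61 further clock genes in 5 lists; filled points have an adjusted p under 0.05. The morning factors LNK1 and LNK3, the light-signalling genes PHYB, TZP and COP1, and CDF3 among the outputs stand below 0, and no F-box protein or co-repressor is filled.

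Among the 14 output and target genes 2 rose and 2 fell, beside 6.95% and 7.58% of all loci; the number higher ran from 0 to 3 over the alternatives. CDF3, a DOF transcription factor of the family that represses CONSTANS and is removed through GI and FKF1, gave 8.24, 8.37, 8.16 and 8.16 on the wild type arrays and 6.60, 6.82, 6.25 and 6.44 on the labelled-depleted arrays. Its difference was -1.70 ± 0.14 (adjusted p = 1.64e-05), or 3.26-fold lower, and the groups lay 1.34 apart. CDF2, of the same family, differed by 0.63 ± 0.30 without passing the test (adjusted p = 0.212). CDF1, also of that family, fell by 0.56 ± 0.15 (adjusted p = 0.0301), a call that was lost after cyclic loess normalization (-0.47), without wild type replicate 1 or 2 (-0.46 and -0.55) and without labelled-depleted replicate 2, 3 or 4 (-0.48, -0.55 and -0.55). CBF2, a cold-response factor that PRR proteins repress, rose by 1.35 ± 0.38 (adjusted p = 0.0334) from wild type values of 1.91 to 2.22 to 3.07, 3.83, 4.46 and 2.19, so that labelled-depleted replicate 4 was at the wild type level. Its call was lost with a trended and robust variance model, without any single wild type array (1.31 to 1.42) and without labelled-depleted replicate 2 or 3 (1.21 and 1.00). CBF1 (0.09) and CBF3 (-0.23) of the same list, at 0.99 to 1.76 and so below the array median, did not pass the test. AT1G69570, of the same family as CDF1, CDF2 and CDF3, rose by 0.56 ± 0.15 (adjusted p = 0.0290) at 1.13 to 2.26, below the array median. Its call was lost without wild type replicate 1 or 3 (0.52 and 0.47) and without labelled-depleted replicate 1 or 3 (0.57 and 0.46). The call was also lost with the replicate number as a block (adjusted p = 0.0768 in limma). CO and FT, the photoperiod genes downstream of GI, lay at 1.19 to 1.80 on every array and did not pass the test. At those levels, below the array median, a change may not be visible. PIF4 and PIF5, the growth regulators under the evening complex, did not pass either.

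Of the 15 accessory clock genes 1 fell and none rose in limma, against 3 lower and 1 higher at an unadjusted p under 0.05, and the number lower is near the 7.58% of all loci. BBX18, a B-box protein, gave 6.80, 6.24, 6.32 and 6.38 on the wild type arrays and 5.82, 6.02, 5.43 and 5.47 on the labelled-depleted arrays, a difference of -0.75 ± 0.17 (adjusted p = 0.0118). The other 14, among them GRP7, an RNA-binding protein of a slave oscillator, did not pass.

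The loci whose array profile lay closest to that of PRR9 were sought over all 27826 loci and the 8 arrays. The measure was the root mean square distance in log2 units after each locus was set to 0 at its own wild type mean, so it is governed mainly by the size of the group difference. The closest were SLP2 (AT4G34980), annotated as a subtilisin-like serine protease, at 0.18, AT1G78995 at 0.21 and GLK1 (AT2G20570), a transcription factor of chloroplast development, at 0.24. SLP2 differed by -2.05 ± 0.16, AT1G78995 by -2.12 ± 0.16 and GLK1 by -2.05 ± 0.17.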

How the data were processed

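Rosette leaf RNA was hybridised as biotin-labelled cDNA to 8 Affymetrix arrays, 4 per group, per the labels' protocols. Per the submitters' processing notes the authors used RMA, and the deposited values are taken here as log2; the sources used here name no log base, RMA version, chip definition or build. All 8 arrays held the same sorted values, so a global shift cannot be seen, and probe positions and specificity among related genes were not examined. Scan date and slide were not used here. Groups and replicate numbers came from the sample titles. The number of arrays limits the precision.

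Group was the single term of a linear model of all 27826 loci in limma 3.58.1 (lmFit, eBayes) in R 4.3.3, without a filter. Tests were two-sided, adjusted by Benjamini-Hochberg over all loci, with a threshold of 0.05. Gene symbols and neighbours came from the TAIR10.1 gene table, which matched all 10 members; 12 of the 61 other listed genes have no symbol in it. NAA50 and its locus carry the field's name. No coordinates or sequences are printed.

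The members and lists were chosen with earlier results of these data known. Named were all members, NAA50, the 2 largest called increases and decreases of each list (or its largest change), and the 3 loci nearest to the most changed member; every other gene was named after its values were seen. Alternatives were cyclic loess, median centring, a block for the replicate number, a filter on dim loci (above the lower quartile on 4 or more arrays), a trended robust variance model, array weights, and each array left out.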

Additional observations from a re-analysis of the deposited data

Results flagged for a closer look

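Single arrays were compared with the other 3 of their group for the 25 named genes in both groups, 50 comparisons in all, with Dixon's ratio of the gap to the whole range against its 95% critical value, which chance exceeds in about 1 of 20 groups. Labelled-depleted replicate 3 lay above the other labelled-depleted arrays for PRR5, at 6.40 (ratio 0.836). Wild type replicate 1 lay below the other wild type arrays for PRR7, at 7.65 (ratio 0.919).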

How the results depend on the processing

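TOC1, PRR5, PRR9, ELF3 and NAA50 kept their direction and their call under all 14 alternatives. The count of members higher was 3 to 4 and that of members lower 1 to 2 when single arrays were left out; members lower was 1 after cyclic loess, because GI was not called. The other listed clock genes numbered 1 to 4 higher and 7 to 8 lower without single arrays, and 5 were higher after cyclic loess. Over all loci, cyclic loess gave 2267 higher and 1559 lower (59.3% of calls higher), against 1934 and 2108 (47.8%) as deposited. Same-numbered deviations correlated at -0.05 to 0.04, and 1 of 4 wild type arrays correlated best with its own number. The sample titles do not say whether same-numbered arrays were handled together, and these correlations cannot exclude it. With the replicate number as a block, members lower was 1 (GI at -0.81, adjusted p = 0.0556) and AT1G69570 (0.56, adjusted p = 0.0768) was not called; over all loci 1781 were higher and 1764 lower. The within-array shifts, -4.08, 0.38 and -0.24, keep their size under such pairing, with an exact sign-flip p of 0.125 for the first, the smallest that 4 pairs allow. The shift of PRR9 minus PRR5 was -4.31 to -3.83, that of LUX minus BOA 0.22 to 0.52 and that of PRR7 minus PRR3 -0.38 to -0.09 without single arrays. The ELF4 difference, which was not called, ran from -0.044 to 0.071 without single arrays and changed sign in 4 of 8. Median centring gave the values as deposited, since the medians were equal. The dim-locus filter removed PRR3, ELF4 and BOA. Signal over background cannot be read from these values, which limits PRR3, ELF4, LUX and BOA.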
